A study of Mus musculus with 6 samples.

Results

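The chaperones of the endoplasmic reticulum were followed in adrenal glands of 2 mouse strains through 9 genes: Hspa5, Hsp90b1, Calr, Canx, Pdia3, Pdia4, Pdia6, P4hb and Xbp1. Members were all probe sets annotated with 1 of these symbols and no other gene, which gave 13 probe sets for the 9 genes, out of 8251 genes named in this way on the array. The samples were whole adrenal glands of male mice aged 12 weeks, 3 arrays from the hypertensive strain BPH and 3 from the hypotensive strain BPL. Both strains go back to selective breeding of mice for blood pressure, so the question is how adrenal gene activity differs between the strains bred for high and for low pressure. Effects of pressure itself cannot be told apart here from other strain differences. No treatment, transgene or deletion is named for either strain, and the groups differ in strain alone as far as the labels say. The labels count 3 mice in each strain without stating that 1 array holds 1 animal, so p-values here reflect only the spread among these 6 arrays, which may be technical in part.

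Secreted and membrane proteins fold in the lumen of the endoplasmic reticulum. There the Hsp70 protein BiP (Hspa5) and the Hsp90 protein Grp94 (Hsp90b1) bind unfolded chains, the lectins calreticulin (Calr) and calnexin (Canx) hold glycoproteins, and protein disulphide isomerases (Pdia3, Pdia4, Pdia6 and P4hb) form and rearrange disulphide bonds. When unfolded protein builds up, the unfolded protein response raises these genes through the factors ATF6 and XBP1. The adrenal gland joins a steroid-making cortex, rich in smooth endoplasmic reticulum, with chromaffin cells that secrete catecholamines and granule proteins.

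The promoters were searched for the endoplasmic reticulum stress element, which carries a CCAAT box for NF-Y and a CCACG part for ATF6 or XBP1. It was searched on both strands as CCAAT, any 9 bases and CCACG, in RefSeq windows (build GRCm38.p6) from 250 bases before to 50 after the gene start. All 9 genes had a window, and 5 held the element (Hspa5, Hsp90b1, Calr, Canx and Pdia6), against 0.137% of 27025 genes with such a window (37 genes). The members are genes that the unfolded protein response raises, so this comparison is a description and no independent test. Pdia3, Pdia4, P4hb and Xbp1 had no exact match in this window. The elements are shown so that the invariant ends can be compared, with the CCAAT and CCACG parts in capitals and the 9 free bases in lower case:

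Hspa5 element, chr2:34772025-34772043, plus strand: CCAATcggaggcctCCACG
Hsp90b1 element, chr10:86705638-86705656, minus strand: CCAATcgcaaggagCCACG
Hsp90b1 second element, chr10:86705533-86705551, plus strand: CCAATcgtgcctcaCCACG
Calr element, chr8:84847075-84847093, plus strand: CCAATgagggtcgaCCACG
Canx element, chr11:50325800-50325818, minus strand: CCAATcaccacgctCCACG
Pdia6 element, chr12:17266491-17266509, plus strand: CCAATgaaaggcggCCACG

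Of the 5 genes 4 carried 1 element, while Hsp90b1 carried a pair in opposite orientations. The element of Hspa5 lay 65 to 47 bases before the start, and that of Pdia6 98 to 80 bases before it. Hsp90b1 and Pdia6 held the highest and the lowest difference between strains among the tested probe sets (Calr, too dim to test, had a higher one), and both carried an exact element. So did Hspa5 (0.17) and Canx (0.20 and -0.18), while Pdia4 (-0.37) had none, and a relation of element and difference was not tested. The 250 bases before the start of Hsp90b1, Pdia6 and Hspa5 are printed to show the surroundings. The element is in capitals as before (CGTGG and ATTGG where it lies on the other strand). Hspa5 lies at chr2:34771840-34772089 (plus strand), Hsp90b1 at chr10:86705445-86705694 (minus strand) and Pdia6 at chr12:17266339-17266588 (plus strand):

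Hspa5 upstream: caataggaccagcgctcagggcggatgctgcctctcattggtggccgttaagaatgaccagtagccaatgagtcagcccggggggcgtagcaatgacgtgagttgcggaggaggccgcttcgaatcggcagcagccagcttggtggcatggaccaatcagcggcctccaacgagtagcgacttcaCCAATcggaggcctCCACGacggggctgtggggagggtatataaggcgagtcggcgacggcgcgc
Hsp90b1 upstream: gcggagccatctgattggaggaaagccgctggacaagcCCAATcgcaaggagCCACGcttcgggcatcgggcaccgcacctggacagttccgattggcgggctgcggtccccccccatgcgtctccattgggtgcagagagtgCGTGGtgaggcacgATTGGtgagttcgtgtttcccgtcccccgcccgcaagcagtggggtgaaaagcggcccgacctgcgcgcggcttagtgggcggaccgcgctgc
Pdia6 upstream: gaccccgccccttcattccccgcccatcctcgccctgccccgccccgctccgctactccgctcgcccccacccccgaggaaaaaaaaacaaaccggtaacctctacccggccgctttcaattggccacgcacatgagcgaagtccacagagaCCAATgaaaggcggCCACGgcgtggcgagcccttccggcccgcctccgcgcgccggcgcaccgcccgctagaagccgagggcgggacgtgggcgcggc

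The ERSE-II element (ATTGGNCCACG, whose first part is a CCAAT box read on the other strand) was in 0 of the 9 windows and in 0.0444% of all genes. The TGACGTGG core of the UPR element was also in 0 of 9, against 0.714%. A CCAAT box, which every element of the first kind contains, was in 8 of 9 windows (all but Xbp1), against 41.1% of all genes. These matches are descriptions of sequence, and nothing is concluded about the factors.

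Values are array signals, scaled so that every array has the same median (1039.51), and differences are on the scale of log2(signal + 203.2), which understates changes of dim genes. A probe set was tested when its mean log2 value was above 9.68, a signal of about 617. Of the 13 probe sets 12 were tested, for 8 of the 9 genes, and only the Calr probe set was too dim. Levels of different probe sets are not compared with each other, since probe sets bind with different strength, and ratios between them are used only for how they differ between the strains.

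No tested member was called different between the strains. By limma with Benjamini-Hochberg adjustment over all 7453 tested probe sets, at a threshold of 0.05, 0 of 12 member probe sets were higher and 0 lower, against 4.11% of all tested probe sets (3.18% higher and 0.926% lower in BPH). At an unadjusted p under 0.05 there was 1 of 12, a Pdia6 probe set, against 20.6% of all tested probe sets. The 3 arrays of one strain lay wholly on one side of the other in 3 of 12 member probe sets, 1 with BPH above and 2 with BPH below, against 27.6% of all (19.7% above and 7.97% below). Differences ran from -0.50 to 0.39, with a median of -0.06, beside a median of 0.08 for all tested probe sets. Genes with several probe sets, such as Pdia6, count more than once in that -0.06. With the brightest tested probe set of each of the 8 genes the median was 0.07, with 4 differences positive and 4 negative. The median over the 12 probe sets moved to -0.17 without BPH replicate 1 and to -0.001 without BPL replicate 1. With single arrays left out, its sign turned only without BPH replicate 2, to 0.11.

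**Figure D1:**
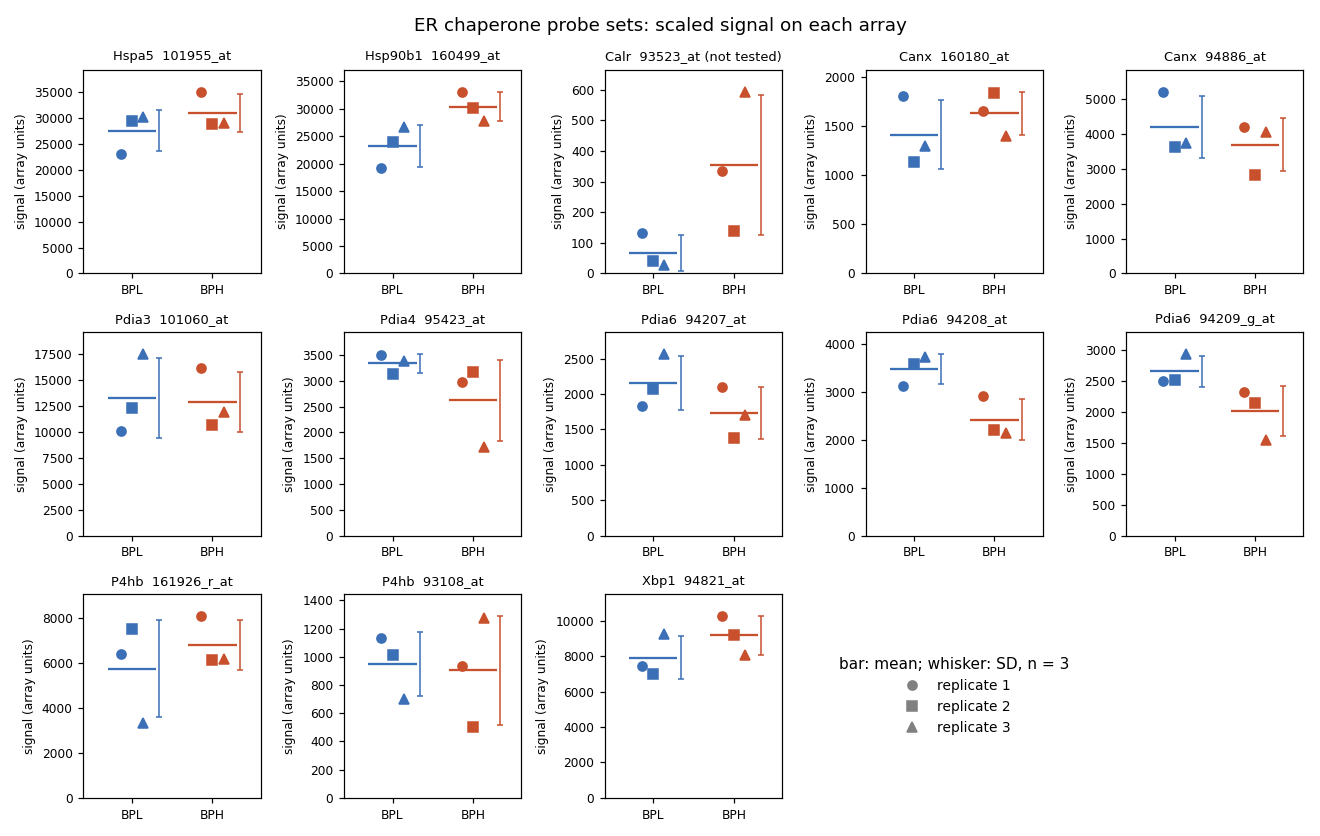
Scaled signal (vertical axis, array units, from 0) of each of the 13 probe sets on every array, with BPL in blue and BPH in red, symbols for replicates 1 to 3, bars for the mean and whiskers for the SD (n = 3). The strains overlap in 9 probe sets and are separate for Hsp90b1, Calr and the Pdia6 probe sets 94208_at and 94209_g_at.

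Hspa5 encodes BiP, the Hsp70 of the endoplasmic reticulum and the usual readout of the unfolded protein response. Its probe set 101955_at had signals of 22998, 29343 and 30203 in BPL replicates 1 to 3 and of 35076, 28812 and 28931 in BPH replicates 1 to 3. The strains overlapped, with BPL replicate 1 the lowest array, BPH replicate 1 the highest and the other 4 within a narrow band. The means were 27515 ± 3935 and 30939 ± 3583 (SD, n = 3), and BPH minus BPL was 0.17 ± 0.17 in log2 (SE, limma adjusted p = 0.601). The difference was 0.056 with the authors' scaling, 0.0057 with quantile-normalized arrays and 0.049 when BPL replicate 1 was left out. The 95% confidence interval, from -0.22 to 0.57, leaves room for a modest difference in either direction.

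Hsp90b1 encodes Grp94, the Hsp90 of the same compartment. Its signals were 19137, 23893 and 26638 in BPL and 33166, 30168 and 27837 in BPH. All 3 BPH arrays lay above all 3 BPL arrays, although BPH replicate 3 exceeded BPL replicate 3 only narrowly. This was the largest positive difference among the tested members, 0.39 ± 0.17 or a 1.31-fold higher level, and it did not pass (limma adjusted p = 0.246, 95% confidence interval -0.004 to 0.79). Leaving out BPL replicate 1 brought the difference to 0.26, and it was 0.23 after quantile normalization.

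The lectin chaperones gave no single direction. Canx, the membrane-bound lectin that holds newly made glycoproteins, had 2 probe sets of opposite sign. Probe set 160180_at had signals of 1807, 1135 and 1297 in BPL and 1653, 1842 and 1396 in BPH, a log2 difference of 0.20 ± 0.20 (limma adjusted p = 0.597). Probe set 94886_at had 5218, 3635 and 3749.7 in BPL and 4211, 2819 and 4044 in BPH, a difference of -0.18 ± 0.21 (limma adjusted p = 0.661). Single arrays set the size of both, since the first was 0.37 without BPL replicate 1 and 0.071 without BPL replicate 2, and the second was -0.020 without BPL replicate 1 and -0.0063 without BPH replicate 2. In both probe sets the strains overlapped, and BPL replicate 1 was the highest BPL array.

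Calr encodes calreticulin, the soluble counterpart of calnexin that also stores calcium. Its only probe set, 93523_at, had signals of 133, 39.2 and 28.5 in BPL and 333, 138 and 594 in BPH. All 3 BPH arrays lay above the BPL arrays, but BPH replicate 2 exceeded BPL replicate 1 by little, and every value was under the 617 that a probe set needed on average. Tested with no filter, among 12422 probe sets, the log2 difference was 0.98 ± 0.32 and was not called (limma adjusted p = 0.235). No detection calls were used, and whether such dim signals measure the Calr transcript was not tested.

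No protein disulphide isomerase was called, and the 4 genes did not share a direction. As 1 value per gene, BPH minus BPL was -0.39 for Pdia6, -0.37 for Pdia4, -0.027 for Pdia3 and 0.098 for P4hb, and 3 of the 6 probe sets with negative differences were those of Pdia6. Pdia6 (P5) had 3 probe sets, all with negative differences. Probe set 94208_at had signals of 3127, 3584 and 3729 in BPL and 2909, 2193 and 2149 in BPH, so every BPH array lay below every BPL array. Its difference of -0.50 ± 0.17, or 1.41-fold lower, was the largest of the 12 in size and the only one whose 95% confidence interval did not hold 0 (-0.89 to -0.11). It did not pass after adjustment (limma adjusted p = 0.155), and over the other settings the adjusted p ran from 0.0629 after quantile normalization to 0.496 without BPL replicates 1 and 2.

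Probe set 94209_g_at of Pdia6 was designed on the same sequence record, per the platform annotation, and so is no independent measure of it. It had 2506, 2517 and 2941 in BPL and 2328, 2142 and 1554 in BPH, again without overlap, a difference of -0.38 ± 0.18 (limma adjusted p = 0.274). The third, 94207_at, from another record, had 1829, 2068 and 2572 in BPL and 2104, 1374 and 1707 in BPH, a difference of -0.29 ± 0.20 (limma adjusted p = 0.426). Here the strains overlapped, because BPH replicate 1 lay above BPL replicates 1 and 2. The mean of the 3 probe sets, fitted as 1 value per gene, gave -0.39 ± 0.17 (limma adjusted p = 0.226).

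Pdia4 (ERp72), an isomerase with several thioredoxin-like domains, had signals of 3495, 3136 and 3390 in BPL and 2968, 3172 and 1717 in BPH. BPH replicate 3 stood far below the other 5 arrays, which lay close together. The SD was 184 in BPL and 788 in BPH (n = 3), and the log2 difference was -0.37 ± 0.23 (limma adjusted p = 0.383). Without BPH replicate 3 it was -0.11. Pdia3 (ERp57), the isomerase that works with the 2 lectins, had 10057, 12264 and 17533 in BPL and 16154, 10663 and 11867 in BPH. The lowest and the highest of the 6 values were both BPL arrays, and the difference was -0.03 ± 0.24 (limma adjusted p = 0.963, 95% confidence interval -0.58 to 0.53).

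P4hb is protein disulphide isomerase itself and also the beta subunit of collagen prolyl 4-hydroxylase. Its 2 probe sets had opposite signs. Probe set 161926_r_at had 6369, 7513 and 3338 in BPL and 8082, 6103 and 6169.5 in BPH, a difference of 0.30 ± 0.29 (limma adjusted p = 0.584). Probe set 93108_at had 1137, 1012 and 698 in BPL and 935, 505 and 1275 in BPH, a difference of -0.10 ± 0.28 (limma adjusted p = 0.862). The single arrays that set these signs differed, since BPL replicate 3 was the lowest array of the first probe set and BPH replicate 2 of the second.

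Xbp1 encodes the transcription factor whose messenger RNA is spliced by the sensor IRE1 when unfolded protein builds up. Its probe set 94821_at had 7448, 7014 and 9295 in BPL and 10283, 9223 and 8078 in BPH, with overlap. The difference was 0.21 ± 0.17 (limma adjusted p = 0.511, 95% confidence interval -0.18 to 0.61). The value is for the whole transcript, and spliced and unspliced forms were not measured separately here.

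**Figure D2:**
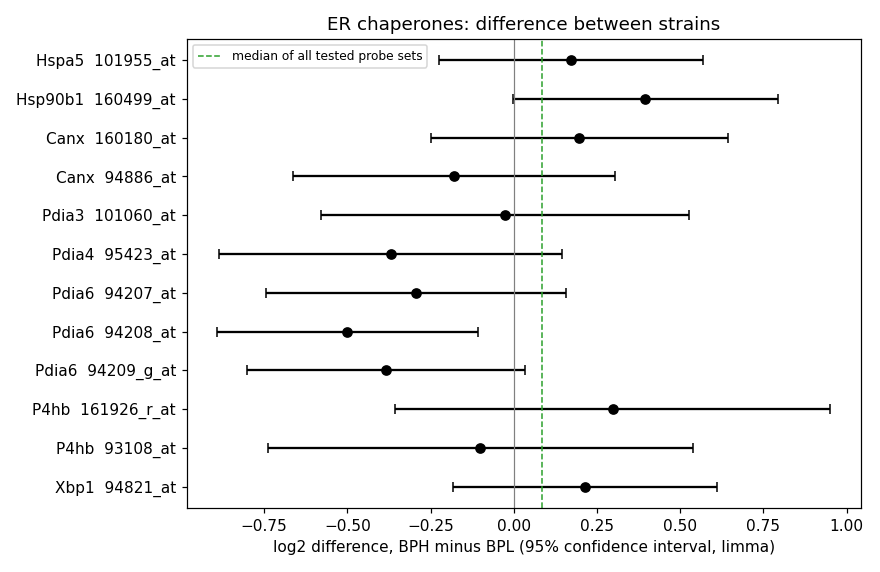
Log2 difference, BPH minus BPL (horizontal axis), of the 12 tested probe sets, with points for the limma estimate and bars for the 95% confidence interval (3 arrays per strain). The intervals of 11 probe sets hold 0, the exception is Pdia6 94208_at, and the dashed line marks the median of all 7453 tested probe sets at 0.08.

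The differences shift together with the scaling of the arrays. With the authors' own scaling the median of all tested probe sets was -0.022, a shift of 0.11. Relative to the median of all, 5 member probe sets lay above it and 7 below, Hsp90b1 at 0.31 above and Pdia6 94208_at at -0.58. The 7 below include every probe set of Pdia6, so this gene counts more than once among them. No member changed sign under another scaling. Within BPH, replicate 1 was above the mean of the 6 arrays in 12 of 12 tested member probe sets, beside 68.7% of all tested probe sets on that array. With the authors' scaling that count was 7 of 12, beside 48.9%, so it moved with the scaling.

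The profile of Hsp90b1 over the 6 arrays, centred on its own mean, was most like those of Psma5, Ctnna1, Arid1a, Mrfap1 and F2r among 6627 probe sets of other named genes, with root mean square differences of 0.0246 to 0.0369 in log2. The profile of Pdia6 94208_at was most like those of Nudt4, Scd1, Ctsl, Lrp10 and Adss, at 0.0628 to 0.0689. None of these 10 genes is a member or stands in the lists of endoplasmic reticulum genes used here.

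The cytosolic relatives of these chaperones differed strongly on the same arrays. Of 18 tested cytosolic heat shock genes 12 were higher and 0 lower, with a median difference of 1.04. The count was 7 without BPH replicate 1, 6 without BPH replicate 2, 7 with no filter and 4 without BPL replicates 1 and 2. Hspa1a, the inducible Hsp70, had signals of 1514, 1504 and 1897 in BPL and 80113, 58925 and 33412 in BPH, a difference of 4.89 ± 0.30 (limma adjusted p = 1.1e-04). Hspa1b, its near-identical copy, which can share probes with it, rose by 4.67, the Hsp40 co-chaperone Dnajb1 by 3.17 and the Hsp70 cofactor Bag3 by 2.47 (limma adjusted p from 2.1e-04 to 0.0067). Dnajb1 was not called without BPL replicates 1 and 2 (limma adjusted p = 0.102).

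The unequal change of an endoplasmic reticulum chaperone and its cytosolic relative was measured as a log2 ratio within each array. The ratio of Hspa1a to Hspa5 was 4.71 higher in BPH, with every BPH array above every BPL array. Hspa8, the constitutive cytosolic Hsp70, had 23226, 27114 and 27345 in BPL and 50788, 47462 and 45278 in BPH, a difference of 0.88 ± 0.15 (limma adjusted p = 0.018). Its ratio to Hspa5 was 0.71 higher in BPH, with an SD of 0.08 among the BPL and 0.09 among the BPH arrays (n = 3), again without overlap. The cytosolic Hsp90 gene Hsp90aa1, chosen for mention after its values were seen, had 16506, 21738 and 27447 in BPL and 81524, 70521 and 54016 in BPH, a difference of 1.65 ± 0.23 (limma adjusted p = 0.0067). Its ratio to Hsp90b1 was 1.26 higher in BPH, with an SD of 0.13 among the BPL and 0.18 among the BPH arrays (n = 3), without overlap.

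These ratios serve as a description and no p-value is given for them, since the relatives were named with their differences known. The ratio differences ran from 4.42 to 5.02 for Hspa1a, from 0.67 to 0.77 for Hspa8 and from 1.11 to 1.36 for Hsp90aa1 over the other settings. As a single gene, Hspa8 lost its limma call without BPL replicate 2 (adjusted p = 0.0546), without BPH replicate 1 (0.073) or 2 (0.0853), with no filter (0.0547), with the replicate block (0.056) and without BPL replicates 1 and 2 (0.224). Hsp90aa1 also lost its call in the last of these settings (limma adjusted p = 0.104). The 3-unit heat shock element GAANNTTCNNGAA was in the promoter windows of 3 of 18 cytosolic heat shock genes with a window (Hsph1, Dnajb6 and Chordc1), in 0 of the 9 endoplasmic reticulum genes and in 0.662% of all genes. Only exact matches within the 300 bases counted, and imperfect or more distant elements were not searched. Hspa1a, Hspa1b and Dnajb1 had a window but no exact match in it.

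**Figure D3:**
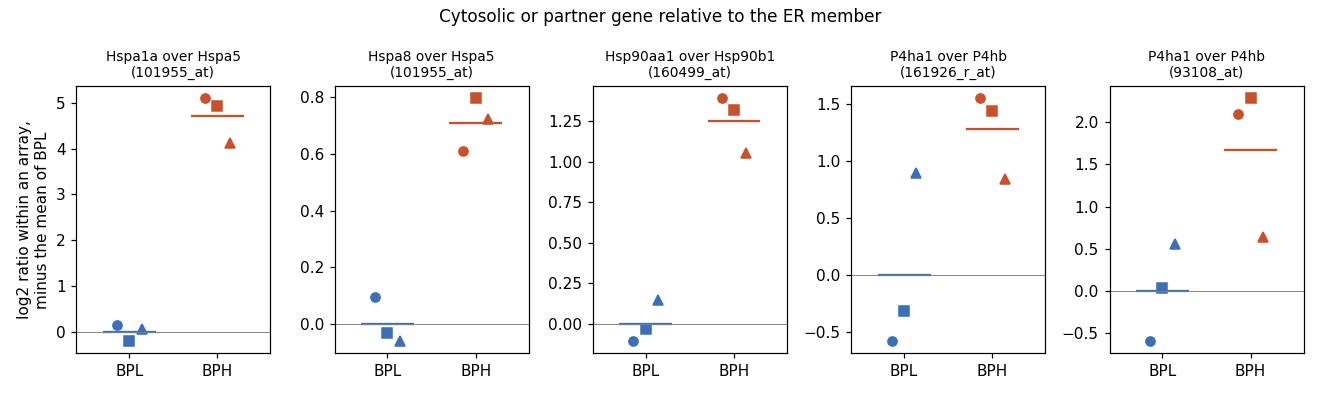
Log2 ratio within an array of a cytosolic or partner gene to the endoplasmic reticulum member, minus the BPL mean of that ratio (vertical axis), with circles, squares and triangles for replicates 1, 2 and 3 and bars for means. The strains are separate for Hspa1a and Hspa8 over Hspa5, for Hsp90aa1 over Hsp90b1 and for P4ha1 over the P4hb probe set 93108_at, and overlap for P4ha1 over 161926_r_at.

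The rest of the endoplasmic reticulum pathway was described from 4 lists of 114 genes, of which 88 had a probe set of their own and 83 were tested. Of the 83, 2 were called higher, 0 lower and 81 not, a share of 2.41% beside 4.11% of all tested probe sets. Each gene is represented by its brightest tested probe set. The count of 2 was 0 with no filter and without BPL replicate 1, BPH replicate 1, BPH replicate 2 or BPL replicates 1 and 2, and 1 without BPL replicate 2.

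Among 27 other folding factors (cochaperones, oxidases, isomerases and glycan-trimming enzymes), 1 was called higher and 0 lower, and the median difference was 0.19. That median was 0.11 without BPL replicate 1, 0.028 without both BPL replicates 1 and 2, 0.076 with the authors' scaling and 0.069 with quantile-normalized arrays. It was higher, at 0.28, without BPL replicate 3 and likewise without BPH replicate 3. The called gene was P4ha1, the catalytic alpha subunit of collagen prolyl 4-hydroxylase and so the partner of P4hb. Its signals were 888, 1334 and 1427 in BPL and 5810, 4038 and 2632 in BPH, without overlap, a difference of 1.57 ± 0.28 (limma adjusted p = 0.022). The call was lost without BPL replicate 1 (0.0706), BPH replicate 1 (0.0648), BPH replicate 2 (0.0925), BPL replicates 1 and 2 (0.249) and with no filter (0.063). The log2 ratio of P4ha1 to P4hb was 1.28 higher in BPH with probe set 161926_r_at, where BPH replicate 3 lay just below BPL replicate 3, and it was 0.39 without BPL replicates 1 and 2. With probe set 93108_at it was 1.68 higher, without overlap. For these ratios, too, no p-value is given.

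Dnajb9 (ERdj4), a BiP cochaperone induced by XBP1, was not called with either probe set. Probe set 96679_at had 1383, 1247 and 898 in BPL and 854, 764 and 792 in BPH, a difference of -0.44 ± 0.18 (limma adjusted p = 0.214). The other, 96680_at, had a difference of -0.18 ± 0.25 (limma adjusted p = 0.708). Hyou1 (Grp170), the exchange factor of BiP, was not tested, since its signals ran from 13.8 to 94.2 over the 6 arrays. Listed genes outside the members that held the same exact stress element were Dnajc3, Creld2, Ero1b, Syvn1 and Derl3, named here for their sequence alone. Of these, Dnajc3 (-0.24), Creld2 (0.25) and Ero1b (-0.05) were tested and not called (limma adjusted p from 0.398 to 0.888, at the probe set with the highest mean).

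Of 16 sensors and effectors of the unfolded protein response, 1 was called higher and 0 lower, with a median of 0.13. That median was 0.017 with the authors' scaling, 0.016 after quantile normalization, 0.036 after centring, 0.032 without BPL replicate 1, and 0.25 and 0.22 without replicate 3 of BPL and of BPH. The called gene was Atf3, a factor of the ATF4 branch that many other stimuli also induce. It had 1658, 1439 and 1706 in BPL and 6466, 9125 and 3426 in BPH, a difference of 1.76 ± 0.31 (limma adjusted p = 0.020). Its call was lost without BPL replicate 1 (0.0637), BPL replicate 2 (0.0558), BPH replicate 1 (0.0768) or BPH replicate 2 (0.0585), without BPL replicates 1 and 2 (0.228) and with no filter (0.0591). A second Atf3 probe set, 104156_r_at, differed by 2.03 (limma adjusted p = 0.023). Atf3 has a further probe set, 161645_r_at, whose value is not given here.

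Other genes of the response did not pass. Atf4, the factor translated when the sensor PERK acts, had 12574, 10885 and 10437 in BPL and 15145, 17497 and 14828 in BPH, a difference of 0.48 ± 0.16 (limma adjusted p = 0.140). Ppp1r15a (Gadd34), the phosphatase subunit that ends PERK signalling, had 1827, 2079 and 2675 in BPL and 3023, 4268 and 3149 in BPH, a difference of 0.62 ± 0.20 (limma adjusted p = 0.135). In both genes every BPH array lay above every BPL array. Ddit3 (Chop), the factor tied to cell death after prolonged stress, had 1351, 2219 and 2913 in BPL and 1878, 2895 and 1715 in BPH. The strains overlapped widely, and the difference of 0.03 ± 0.28 (limma adjusted p = 0.971) turned negative under each other scaling (-0.080 with the authors' scaling). Herpud1, a membrane protein of the degradation machinery and a target of the response, had 4872, 6207 and 5735 in BPL and 5519.97, 5035 and 5018 in BPH, a difference of -0.10 ± 0.16 (limma adjusted p = 0.748).

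Of 13 genes of endoplasmic reticulum-associated degradation, 0 were called by limma, with a median of 0.29 and differences from -0.11 to 0.67. That median was lower in every setting that left out an array, at 0.094 without BPL replicate 1 and at most 0.21 (without BPH replicate 3), and it was 0.18 with the authors' scaling and 0.14 with quantile-normalized arrays. Of 27 genes of translocation and N-glycosylation, which bring chains into the compartment, 0 were called by limma, with a median of 0.12 and differences from -0.31 to 0.33. The median of this list was 0.0077 with the authors' scaling, -0.025 after quantile normalization and -0.015 without BPL replicates 1 and 2. It was higher, at 0.21, without BPL replicate 3 and likewise without BPH replicate 3. No list of the pathway had a called decrease.

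**Figure D4:**
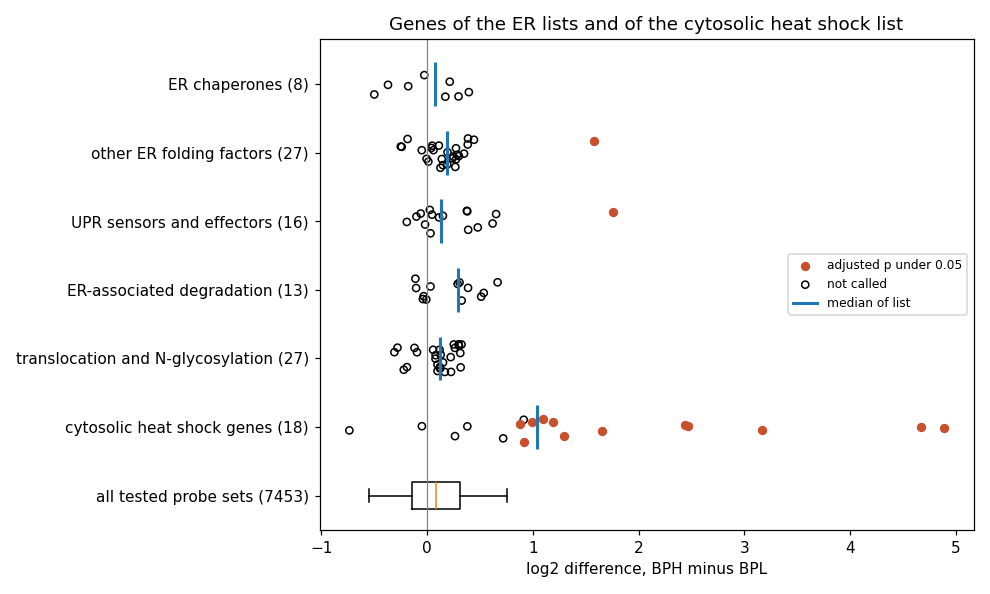
Log2 difference, BPH minus BPL (horizontal axis), of each tested gene in 6 lists, with filled red points for called genes, open points for the others, blue bars for list medians and, for all 7453 tested probe sets, a box with the quartiles and whiskers to the 5th and 95th percentiles. The endoplasmic reticulum lists hold 2 called genes, P4ha1 and Atf3, and the cytosolic list holds 12.

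Cell type markers were read beside these values, since whole glands were hybridised and fewer cells of a type cannot be told from less RNA per cell. The labelled tissue was borne out by bright cortex and chromaffin genes on all arrays: Cyp11a1 at 64980 or above, Star (92213_at) at 75933 or above, Chga (92422_at) at 19514 or above and Th at 12088 or above. Of 10 tested cortex markers 1 was higher and 0 lower, but all 10 differences were positive, with a median of 0.18. The mean log2 signal of the cortex markers was 14.90 to 15.24 in BPL and 15.28 to 15.51 in BPH, without overlap. Their summed signals overlapped (561474 to 731182 and 701389 to 821884). Of 10 chromaffin markers 5 were higher and 0 lower, with summed signals of 168522 to 266654 in BPL and 298264 to 394224 in BPH. Of 16 tested skeletal muscle markers 10 were lower and 0 higher, with summed signals of 41202 to 505908 in BPL and 13225 to 14327 in BPH. Acta1, the skeletal muscle actin, fell from 52319 ± 42219 to 247 ± 126 (SD, n = 3, limma adjusted p = 0.0012), and 0 fat markers were called by limma. Plasma and B cell markers (summed signal 14733 to 15440 in BPL and 14287 to 17880 in BPH) and pancreatic acinar markers (15947 to 17644 and 16538 to 17452), from secretory cells known for high Xbp1, overlapped between strains. Summed signals of endothelial markers (22053 to 32889 and 33938 to 37640) and of macrophage markers (8514 to 9692 and 11586 to 13586) were higher on all BPH arrays. The mean log2 signal of the endothelial markers overlapped (11.01 to 11.49 and 11.34 to 11.51), that of the macrophage markers did not (9.51 to 9.55 and 9.75 to 9.82), and 0 of 8 and 0 of 4 tested genes were called by limma. For fibroblast and matrix markers the mean log2 signal was narrowly higher on all BPH arrays (11.965 to 12.069 in BPL and 12.074 to 12.210 in BPH). Summed signals of that list overlapped (87943 to 101713 and 100551 to 129616), and 0 of its 12 tested genes were called by limma. Without BPL replicates 1 and 2, the arrays richest in muscle transcripts, 0 of 12 member probe sets were called, Hspa5 differed by 0.028, Hsp90b1 by 0.19 and Pdia6 94208_at by -0.60.

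RNA quality moved with the strain. For the Gapdh control probe sets, the 3' signal over the 5' signal averaged -0.001 (SD 0.050) over the BPL arrays and 0.169 (SD 0.074) over the BPH arrays on the log2 scale, and for Actb 0.856 (SD 0.057) and 1.08 (SD 0.16), with n = 3 each. Both were higher on all 3 BPH arrays (2-sided exact permutation p = 0.1, adjusted p = 0.1 over the 2 ratios). The part of cell makeup or RNA quality in the members' differences was not tested.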

How the data were processed

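Deposited values are linear intensities, 1 for each probe set on each array, which the authors made with MAS5 according to the submitters' processing notes (version not stated there). The 66 control probe sets were set aside. Medians of the other 12422 probe sets differed by 21.0% between arrays, so arrays were rescaled to a shared median, and values became log2(signal + 203.2), the 20th percentile of scaled signals. Probe sets in the lowest 40% by mean were left untested. Strains were compared with lmFit and eBayes of limma (version 3.58.1, R 4.3.3) over 7453 probe sets, 2-sided, with 4 residual and 4.50 prior degrees of freedom, Benjamini-Hochberg adjustment and a threshold of 0.05. No detection calls were used, and the number of arrays limits the precision.

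Genes were named from the platform annotation, where 10833 probe sets have 1 symbol, 396 several and 1193 none. Promoter sequences are RefSeq's for GRCm38.p6. Members and lists were chosen with earlier results of these data known. Named genes were all members, up to 4 called genes per list with the largest differences, and a fixed set of stress and marker genes. The model was checked on simulated data. The changes added there were larger than any difference of a tested member, so recovery of changes that small was not checked. Alternatives covered scaling, pseudocount, filter, variance model, replicate block, probe set averaging and left-out arrays. No pair of arrays shared more than 1 identical value.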

Additional observations from a re-analysis of the deposited data

How the results depend on the processing

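The count of 0 called member probe sets held under all other settings tried, 12 tested probe sets in most, 13 with no filter, 10 with the stricter filter and 8 genes with probe sets averaged. Of 7453 probe sets 306 were called, 127 with no filter, 87 without BPL replicates 1 and 2 (1 BPL array, assumed to vary like the others) and 101 to 375 with single arrays left out. The other endoplasmic reticulum genes gave 2 calls, 0 with no filter, 0 without BPL replicates 1 and 2, and 0 to 2 with single arrays left out. Calls higher in BPH were 237 of 306, but 195 of 294 with the authors' scaling, 182 of 271 after quantile normalization and 190 of 275 after centring.

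Signs that turned were all of uncalled probe sets. With single arrays left out, Pdia3 ran from -0.21 to 0.19, P4hb from -0.039 to 0.52 (161926_r_at) and from -0.34 to 0.19 (93108_at), Ddit3 from -0.25 to 0.25 and Star 161784_f_at from -0.032 to 0.096. Without BPL replicates 1 and 2, P4hb 93108_at was 0.24, Xbp1 -0.022, Ddit3 -0.43, Cyp11a1 -0.017, Star 92213_at -0.036 and Chga 162192_f_at -0.066. With the authors' scaling, after quantile normalization and after centring, Ddit3 was -0.080, -0.036 and -0.069, Star 161784_f_at -0.094, -0.14 and -0.074, and Chga 162192_f_at -0.039, -0.093 and -0.019. The cause was not tested.

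No pairing by replicate number was seen, though 3 arrays per strain cannot exclude it. Deviations of same-numbered arrays from their strain means correlated at -0.06, -0.05 and -0.18 across probe sets, and no array of either strain correlated best with its own number. With the replicate block 239 probe sets, 0 member probe sets and 2 other endoplasmic reticulum genes were called. The 3 arrays per strain and dim probe sets such as those of Calr and Hyou1 limit what can be seen.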
